A study of Arabidopsis thaliana with 8 samples.

Results

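In dark-grown Arabidopsis thaliana seedlings of the Columbia accession, the 4 arrays whose genotype carried the phyB-9 allele were compared with the 4 arrays of genotypes with a functional PHYB gene. These are all 8 arrays of the series, and the arrays were divided by the genotype in their labels alone. The phyB-9 arrays came from the phyB single mutant (phyB-9) and the phyAphyB double mutant (phyA-211 phyB-9), with 2 arrays each. The PHYB arrays came from the wild type (WT) and the phyA single mutant (phyA-211), also with 2 arrays each, so that phyA-211 was carried by 2 arrays on either side. All seeds were chilled for 5 days at 6 °C, received 1 h of white light on 0.8% agar at 22 °C and were then kept at 22 °C in darkness for 3 days. Whole seedlings were profiled on the Affymetrix ATH1 array, which reports 1 intensity for each probe set. In such bulk RNA, fewer cells of a type and less RNA per cell cannot be told apart.

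Phytochrome B is the light-stable red and far-red light receptor that dominates red-light responses of green and light-treated seedlings. Red light converts phytochromes to their active form, which enters the nucleus and removes the phytochrome-interacting transcription factors that drive hypocotyl growth and hold back chlorophyll and photosynthesis genes in darkness. Phytochrome A is the light-labile relative that accumulates in etiolated seedlings. Both phyB-9 and phyA-211 are loss-of-function alleles.

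Nothing in the labels tells whether replicate arrays were grown from different seed lots or on different days, and p-values cover only array-to-array spread, possibly a technical one. No probe set in the annotation used here named PHYA or PHYB, and the genotypes could therefore not be checked on the mutated genes. As a tissue check, PORB, the protochlorophyllide oxidoreductase that persists through greening, read between 34265 and 63901 on the 8 arrays. ICL, the isocitrate lyase of seed oil use, read between 57480 and 148008. PORA, HLS1 and MLS, also looked for as genes of etiolated or oil-using seedlings, were named by no probe set in the annotation, which leaves 8730 probe sets unnamed and does not show that the array lacks them. The 3 measured pollen and flower marker genes (AMS, MGH3 and SPL) read between 11 and 300. Summed over the 4 measured root markers the intensity was 71127 to 115124 on the PHYB arrays and 73681 to 123855 on the phyB-9 arrays. Single readings of these markers ran from 99 to 120174, so the sum follows the brightest and does not show the dimmer ones.

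The 3'/5' signal ratio of the GAPDH control probe sets, a measure of RNA integrity and labelling, set 2 arrays apart, and 1 of them lay on either side of the comparison. It was 16.7 on WT replicate 1 and 7.87 on phyB replicate 2, against 1.31 to 2.31 on the other 6 arrays. These 2 arrays also had the highest hybridisation spike signals, at 20357.9 and 13894.7. Neither the GAPDH ratio, the actin 3'/5' ratio, the spike signal nor the median intensity separated the phyB-9 arrays from the PHYB arrays, with two-sided exact permutation p-values of 0.51 to 0.86, where 70 splits allow a smallest p of 0.0286. Correlations of log2 intensity were 0.915 to 0.964 between arrays of the same phyB-9 status and 0.908 to 0.965 between arrays of different status. Arrays were thus no more alike within than between the groups.

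Few probe sets were called between the genotypes with phyB-9 and those without it. With 2 arrays per genotype, few calls do not show that few transcripts changed. In a limma fit of 22746 probe sets on log2(intensity + 39), 2 probe sets passed a Benjamini-Hochberg adjusted p of 0.05 as higher with phyB-9 (0.00879% of those tested) and 1 passed as lower (0.0044%). At an unadjusted p under 0.05 there were 392 higher (1.72%) and 221 lower (0.972%), together 613, where 5% of the probe sets would be 1137.3. All 4 phyB-9 arrays lay above all 4 PHYB arrays for 219 probe sets (0.963%) and below them for 167 (0.734%). The median log2 difference over all probe sets was 0.03. The 3 calls depended on the set of arrays. Without WT replicate 2 there were 9, and without any 1 of the other 7 arrays, or without both arrays of high GAPDH ratio, there were 0.

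Both probe sets that rose with phyB-9 are bright, and neither is named in the annotation table. Probe set 253767_at read 9325 and 9784 on the WT arrays, 15765 and 18668 on the phyA arrays, 61093 and 52253 on the phyB arrays, and 49281 and 58898 on the phyAphyB arrays. Every phyB-9 array thus lay far above every PHYB array, and within the PHYB side the phyA arrays were above the WT arrays. The log2 difference was 2.10 with an SE of 0.23 and a limma adjusted p of 0.0347, which is 4.30-fold on the log2(intensity + 39) scale. It was 2.56 between phyB and WT and 1.65 between phyAphyB and phyA.

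Probe set 248125_at read 7096 and 5706 on the WT arrays, 5307 and 7467 on the phyA arrays, 24828 and 33597 on the phyB arrays, and 22939 and 29706 on the phyAphyB arrays. Here the PHYB arrays overlapped each other, as did the phyB-9 arrays, and a wide gap lay between the groups. The log2 difference was 2.11 with an SE of 0.24 and a limma adjusted p of 0.0347, or 4.32-fold. It was 2.18 between phyB and WT and 2.05 between phyAphyB and phyA, and the interaction of phyB-9 with phyA-211 was -0.13 (SE 0.48). Without both arrays of high GAPDH ratio the differences of 253767_at and 248125_at were 2.14 and 2.08, with adjusted p-values of 0.649.

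**Figure D1:**
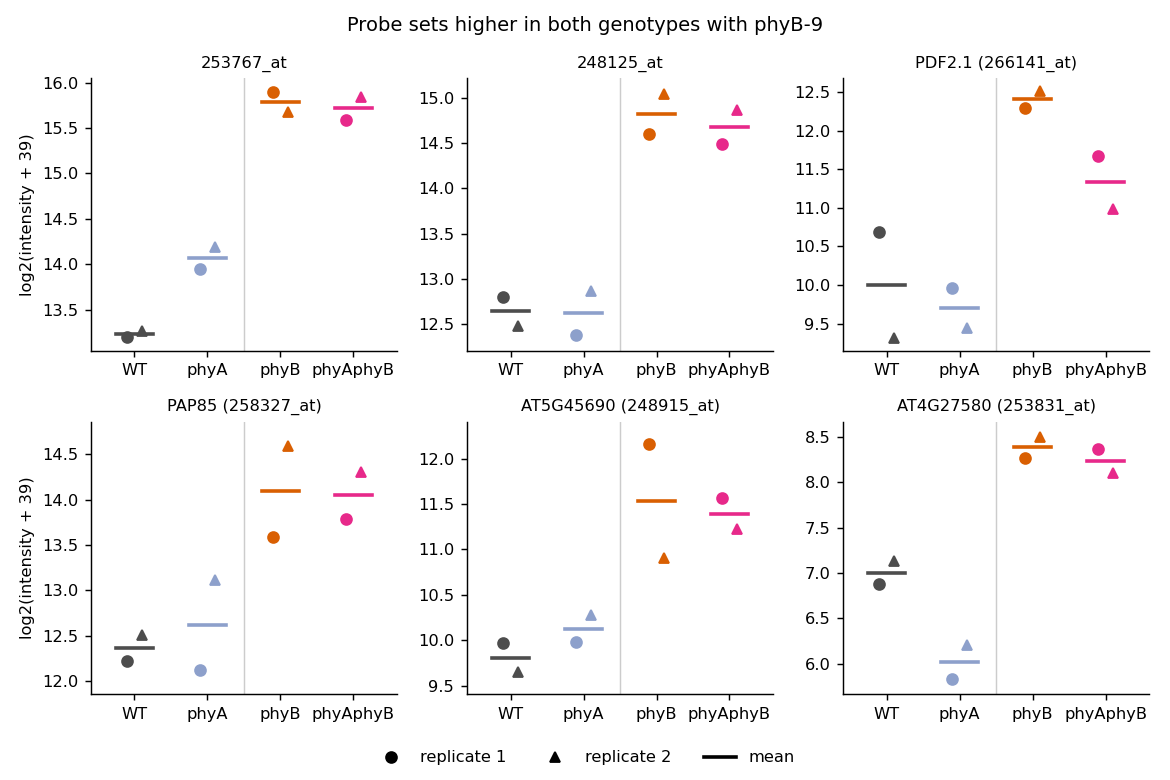
Intensities of 6 probe sets on the log2(intensity + 39) scale, by genotype, with 2 arrays per genotype as points and their mean as a bar. The y axes have different ranges. In each panel the 4 points right of the grey line (phyB-9 arrays) lie above the 4 points left of it. Of these 6, the limma test called 253767_at and 248125_at.

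A defensin and a seed storage protein had the smallest p among named probe sets above the PHYB arrays, although neither passed the adjusted test. PDF2.1, a plant defensin, read 1608 and 595 on the WT arrays, 958 and 657 on the phyA arrays, 4969 and 5812 on the phyB arrays, and 3223 and 1993 on the phyAphyB arrays. Its lowest phyB-9 array was above its highest PHYB array, WT replicate 1. The log2 difference was 2.02 (SE 0.34, limma adjusted p 0.332). PAP85, a vicilin-type seed storage protein, read 4743 and 5802 on the WT arrays, 4426 and 8835 on the phyA arrays, 12256 and 24718 on the phyB arrays, and 14111 and 20201 on the phyAphyB arrays. The groups again did not overlap, and the log2 difference was 1.57 (SE 0.31, adjusted p 0.606), with 1.72 between phyB and WT and 1.43 between phyAphyB and phyA. Without both arrays of high GAPDH ratio the differences of PDF2.1 and PAP85 were 2.30 and 1.25.

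Several loci without a gene symbol, named for their small p in this same comparison, showed the same order of groups. That order was largely set by the choice, and 0.963% of all probe sets lay above without overlap. AT5G10770 read 120 to 319 on the PHYB arrays and 645 to 1715 on the phyB-9 arrays, a log2 difference of 1.86 (SE 0.40, adjusted p 0.983). AT5G45690 read 765 to 1200 and 1877 to 4556, a log2 difference of 1.50, and its highest value was on phyB replicate 1. AT3G56350 read 1416 to 2281 and 3057 to 5439, a log2 difference of 1.15. These 3 loci were bright enough to stand clear of the pseudocount of 39 on every array. AT5G59170 read 944 to 1715 and 2492 to 3731, a log2 difference of 1.21. Dimmer loci with the same order were AT4G27580 (18 to 101 and 236 to 324), AT1G72660 (18 to 107 and 198 to 297) and the pseudogenes AT4G03670 (13 to 72 and 116 to 317) and AT1G37057 (15 to 42 and 58 to 359). On the PHYB side these 4 loci reached down to the pseudocount, so their log2 differences of 1.57 to 1.80 depend on it. The last 2 of the 12 named loci with the smallest p above the PHYB arrays, AT2G34700 and AT2G27580, had log2 differences of 1.39 and 0.99, and their groups overlapped.

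The 1 probe set called lower with phyB-9 was set by the wild type. AT1G43590, a pseudogene in the RefSeq table, read 10536 and 4685 on the WT arrays, 198 and 125 on the phyA arrays, 20 and 115 on the phyB arrays, and 18 and 4 on the phyAphyB arrays. All 3 mutants were thus far below WT, the phyA arrays included, and 3 of the 4 phyB-9 arrays were under the pseudocount. The log2 difference was -4.10 (SE 0.48, limma adjusted p 0.0347), made of -6.21 between phyB and WT and -1.99 between phyAphyB and phyA. With a pseudocount of 1 the difference was -5.59 and was no longer called, at an adjusted p of 0.107. With 150 it was -3.01.

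QQS, an orphan gene known for its link to leaf starch content, was set by the phyA mutant in the same way. It read 178 and 226 on the WT arrays, 3119 and 3255 on the phyA arrays, 132 and 276 on the phyB arrays, and 111 and 155 on the phyAphyB arrays. Only the 2 phyA arrays were high, and the phyB arrays spanned the WT values. The log2 difference between phyB-9 and PHYB arrays was -2.14 (SE 0.39, adjusted p 0.355), and it was -0.05 between phyB and WT and -4.24 between phyAphyB and phyA. A difference between the averaged genotypes is therefore not a difference in each of them.

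Other named loci below the PHYB arrays were mostly dim and were not called. They were named for their small p in this same comparison, so groups without overlap were largely set by the choice. Over all probe sets 0.734% lay below without overlap. SWEET7, a member of the SWEET sugar transporters, read 234 and 97 on the WT arrays, 162 and 256 on the phyA arrays, 36 and 30 on the phyB arrays, and 53 and 35 on the phyAphyB arrays. All 4 phyB-9 arrays were thus close to the pseudocount, and the log2 difference was -1.49 (SE 0.43, limma adjusted p 1.0). Groups also did not overlap for AT2G25640 (134 to 379 on the PHYB arrays and 28 to 123 on the phyB-9 arrays), AT2G43860 (103 to 201 and 17 to 53) and AT3G21340 (115 to 320 and 23 to 70). Of brighter loci, AT3G05400 read 3125 to 4977 on the PHYB arrays and 1019 to 2617 on the phyB-9 arrays, a log2 difference of -1.05. AT3G61930 read 3161 to 4894 and 1441 to 2786, a log2 difference of -0.83. The groups overlapped for AT3G59340, AT2G19970 and AT5G63740, with log2 differences of -1.55, -1.05 and -1.83. In AT3G59340 it was the phyB arrays, at 71 and 114, that were low, while the phyAphyB arrays read 654 and 510 against 663 and 997 on the phyA arrays.

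AT5G40270 was looked up because phyB-9 stocks have been described as carrying a second mutation at this locus, which the labels do not mention. It read 167 and 354 on the WT arrays, 194 and 363 on the phyA arrays, 6 and 12 on the phyB arrays, and 233 and 487 on the phyAphyB arrays. The phyB arrays alone were low, under the pseudocount, while the phyAphyB arrays lay in the range of the PHYB arrays or above it. The log2 difference of phyB-9 and PHYB arrays was -1.13 (SE 0.46, limma adjusted p 1.0), with -2.57 between phyB and WT and 0.31 between phyAphyB and phyA. The interaction was 2.88 with an SE of 0.92, an unadjusted p of 0.00973 and an adjusted p of 0.999. The 2 genotypes with phyB-9 thus did not read alike at this locus, and whether the seed stocks differed there was not tested.

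**Figure D2:**
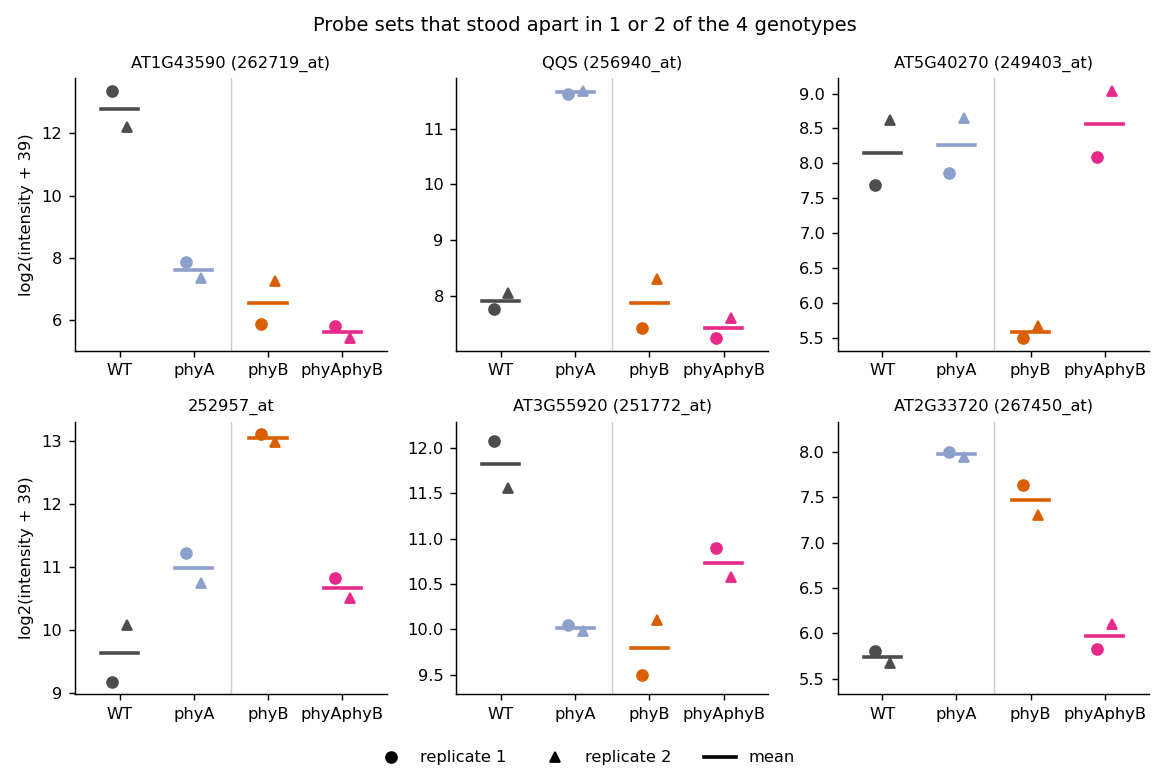
Intensities of 6 probe sets on the log2(intensity + 39) scale, by genotype, with 2 arrays per genotype as points and their mean as a bar. The y axes have different ranges. AT1G43590 is high in WT only, QQS in phyA only and 252957_at most in phyB, AT5G40270 is low in phyB only, and AT3G55920 and AT2G33720 lie in opposite directions with phyB-9 in the 2 phyA backgrounds.

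The changes with phyB-9 in the backgrounds with and without phytochrome A showed little likeness across the array. The comparison of phyB with WT and that of phyAphyB with phyA share no array. Across the 22746 probe sets, which share the 8 arrays and are not independent replicates, their log2 changes had a Pearson r of -0.06, and 45.4% had the same sign. Leaving out either WT or either phyB array in turn, or both arrays of high GAPDH ratio, moved r between -0.09 and -0.01. Of the 1236 probe sets at an unadjusted p under 0.05 in phyB against WT, 504 (40.8%) had the same sign in phyAphyB against phyA. Among the 100 probe sets of smallest p in phyB against WT 42 kept their sign in the other background, and among the 100 of smallest p in phyAphyB against phyA 61 did. Arrays did not overlap in either background, with opposite directions, for 989 probe sets (4.35%), and with the same direction for 749 (3.29%).

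**Figure D3:**
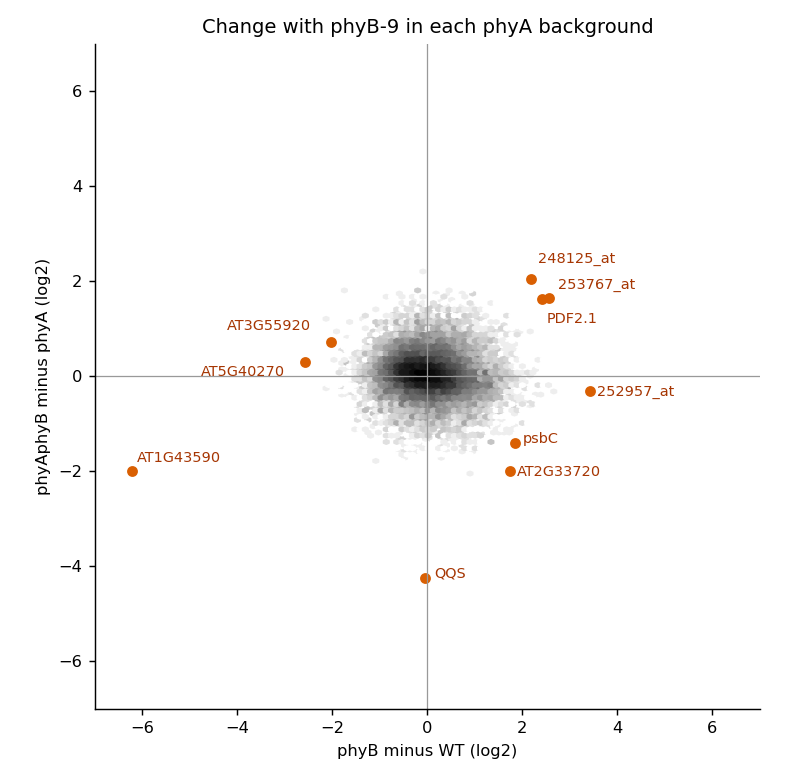
Log2 change between phyB and WT (x axis) and between phyAphyB and phyA (y axis) for 22746 probe sets, with darker grey for more probe sets on a log scale and 10 probe sets marked. The cloud lies around 0 with no slope (r = -0.06). 253767_at, 248125_at and PDF2.1 lie at the upper right, above 0 in both backgrounds, while QQS and 252957_at lie near an axis.

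No probe set was called for the interaction of phyB-9 with phyA-211 in limma (0%), where the adjusted p was 0.937 or more and 734 had an unadjusted p under 0.05. In phyB against WT 2 were called (0.00879%), 1 higher and 1 lower, and in phyAphyB against phyA none was (0%), where 330 had an unadjusted p under 0.05. The 2 called in phyB against WT were AT1G43590 and the unnamed 252957_at. The latter read 539 and 1042 on the WT arrays, 2348 and 1676 on the phyA arrays, 8840 and 8096 on the phyB arrays, and 1775 and 1419 on the phyAphyB arrays. It was highest in phyB, while the phyA and phyAphyB arrays also lay above both WT arrays. It had a log2 change of 3.43 in phyB against WT (adjusted p 0.0443) and of -0.32 in phyAphyB against phyA. Its interaction of -3.74 (SE 0.56) had the smallest p of all probe sets and an adjusted p of 0.937. Without WT replicate 2, 13 probe sets were called for the interaction and 50 in phyB against WT. Without any 1 of the other 7 arrays, 0 were called in either, at smallest adjusted p-values for the interaction of 0.919 or more.

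AT3G55920 and AT2G33720 were among the 5 probe sets with the smallest interaction p. AT3G55920 read 4279 and 2986 on the WT arrays, 1021 and 972 on the phyA arrays, 686 and 1057 on the phyB arrays, and 1864 and 1490 on the phyAphyB arrays. Both single mutants were below WT and the double mutant lay between them and WT. AT2G33720 read 17 and 12 on the WT arrays, 216 and 208 on the phyA arrays, 160 and 119 on the phyB arrays, and 18 and 30 on the phyAphyB arrays. Both single mutants were above WT and the double mutant was near it, under the pseudocount. Their interactions were 2.74 (SE 0.56) and -3.73 (SE 0.77), both with an adjusted p of 0.999.

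No member of any of the gene lists was called with phyB-9, where 0.00879% of all probe sets were called higher and 0.0044% lower. At so small a share the absence of calls is not read as a result about the lists. The 2 probe sets called higher name no gene and could not be in a list. The lists described light signalling, hormones, growth, photosynthesis, stress and reserve use, and each gives its measured members beside a median log2 difference of 0.03 over all probe sets, of which 53.4% were positive. Phytochrome and light signalling had 4 measured members, all with negative differences and a median of -0.19. They were HYH, a bZIP relative of HY5 (-0.65), the bHLH factor SPT (-0.21), FHL, which carries phytochrome A into the nucleus (-0.17), and the homeodomain factor HAT2 (-0.02). None reached an unadjusted p under 0.05 in limma, and the arrays of both groups overlapped for all 4.

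Among hormone genes, the auxin list had 19 measured members, of which 9 were positive and 10 negative, with a median of -0.02. IAA33, of the AUX/IAA repressor family, read 25 to 96 on the PHYB arrays and 113 to 274 on the phyB-9 arrays, a log2 difference of 1.10 (SE 0.42). GH3.17, which conjugates auxin to amino acids, read 4181 to 6062 on the PHYB arrays and 2803 to 4127 on the phyB-9 arrays, a log2 difference of -0.45 (SE 0.22). These 2 of 19 were the auxin genes whose groups did not overlap, where 0.963% of all probe sets lay above and 0.734% below without overlap, and with so few members the counts are not read as a result. IAA29, an AUX/IAA gene known to be induced by shade, read 3354 to 5604 and 3051 to 3531, a log2 difference of -0.37. The gibberellin list, with receptors and regulators of DELLA turnover, had 6 measured members with differences of -0.17 to 0.33, none at an unadjusted p under 0.05.

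Cell wall loosening genes, the expansins and xyloglucan endotransglucosylases of growing walls, had 27 measured members, 16 of them positive (53.4% of all probe sets were), with a median of 0.15. EXPA15 read 722 to 1420 on the PHYB arrays and 1558 to 2681 on the phyB-9 arrays, a log2 difference of 0.88 (SE 0.30). It was the member of the list whose groups did not overlap, where 0.963% of all probe sets lay above without overlap. EXPA15, EXPA8 and EXPA20 had an unadjusted p under 0.05 in limma, where 1.72% of all probe sets were higher at that p. With so few members these counts are not read as a result. EXPA8 and EXPA20 had log2 differences of 0.96 and 0.59. Both came from the comparison of phyB with WT, at 1.85 and 1.30, against 0.08 and -0.13 between phyAphyB and phyA. For EXPA8 the low arrays included WT replicate 1, which read 4231 against 17095 to 35682 on the other 7 arrays. With that array left out its log2 difference was 0.40, and with WT replicate 2 left out instead it was 1.53. The list's median was 0.24 between phyB and WT and -0.09 between phyAphyB and phyA, and 0.05 without both arrays of high GAPDH ratio. The list of cellulose and pectin enzymes had 12 measured members, 7 positive and 5 negative, with a median of 0.01. PME61, a pectin methylesterase, read 989 to 2338 on the PHYB arrays and 2440 to 3615 on the phyB-9 arrays. CSLA03 went the other way, at 2517 to 3130 and 2101 to 2412. Each was the only member without overlap in its direction, where 0.963% of all probe sets lay above and 0.734% below. These counts too are not read as a result.

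Of 17 measured defence genes, mostly defensins, defensin-like proteins and thionins, 15 were positive with phyB-9, where 53.4% of all probe sets were, and the median was 0.38. The median was 0.34 between phyB and WT and 0.48 between phyAphyB and phyA, and 0.42 without both arrays of high GAPDH ratio. Between same-numbered arrays the median of phyB minus WT was -0.19 in replicate 1 and 0.86 in replicate 2. That of phyAphyB minus phyA was 0.50 and 0.34. Relative to the WT mean, the list median was 0.39 and -0.39 on WT replicates 1 and 2, and -0.04 and -0.12 on the phyA arrays. On the phyB arrays it was 0.05 and 0.46, and on the phyAphyB arrays 0.40 and 0.15. WT replicate 1 was thus above phyB replicate 1 and phyAphyB replicate 2. Besides PDF2.1, LCR67, another defensin-family gene, read 10970 to 21452 on the PHYB arrays and 19744 to 31639 on the phyB-9 arrays, a log2 difference of 0.78 (SE 0.29). PDF2.1 alone of the 17 had groups that did not overlap, where 0.963% of all probe sets lay above without overlap. PDF2.1 and LCR67 were the 2 with an unadjusted p under 0.05, where 1.72% of all probe sets were higher at that p. LCR67 overlapped through WT replicate 1.

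Seed and late embryogenesis genes were represented by few probe sets. Besides PAP85, the oleosin OLEO3 was measured, and it read 9563 to 16156 on the PHYB arrays and 10795 to 19424 on the phyB-9 arrays, a log2 difference of 0.24. Summed over PAP85 and OLEO3, the intensity was 17514 to 20582 on the PHYB arrays and 29485 to 39578 on the phyB-9 arrays. Of the 2, PAP85 alone had groups that did not overlap, and it had been named for its small p. PAP85 and OLEO3 are also the measured markers of ungerminated seed, and the part of seed remains in the PAP85 difference was not tested. Of the 10 measured genes of the abscisic acid and late embryogenesis list 6 were positive (53.4% of all probe sets were), with a median of 0.17. The 4 negative members were LEA4-5 (-0.28), COR47 (-0.26), LTI30 (-0.09) and LEA18 (-0.09). M10, a late embryogenesis protein, read 1906 to 3503 on the PHYB arrays and 2802 to 7812 on the phyB-9 arrays, a log2 difference of 1.08 (SE 0.34). Its relative M17 read 6640 to 15409 and 9036 to 50665, with the highest value on phyB replicate 2. The dehydrin LEA read 1041 to 2601 and 2300 to 3176, a log2 difference of 0.68. The arrays of both groups overlapped for M10, M17 and LEA.

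Plastid-encoded genes differed widely between the 2 arrays of phyB and between those of phyA. Of 69 measured, 51 were positive with phyB-9 and the median was 0.24, but it was 0.77 between phyB and WT and -0.20 between phyAphyB and phyA. Relative to the WT mean, the list median was 0.04 and 1.51 on phyB replicates 1 and 2, 0.15 and 1.19 on phyA replicates 1 and 2, and 0.38 and 0.25 on the phyAphyB arrays. The high values were thus those of phyB replicate 2, an array of high GAPDH ratio, and of phyA replicate 2. The median over the averaged genotypes was -0.05 without phyB replicate 2, 0.02 without phyA replicate 1 and -0.16 without both arrays of high GAPDH ratio. The photosystem II core gene psbC read 1520 and 2606 on the WT arrays, 16003 and 6310 on the phyA arrays, 9185 and 5761 on the phyB arrays, and 4228 and 3406 on the phyAphyB arrays. Each single mutant was above WT and the double mutant lay between, with an interaction of -3.25 (SE 0.66, adjusted p 0.999). None of the 69 had an unadjusted p under 0.05 in the limma comparison of phyB-9 with PHYB arrays. The 3 measured Calvin cycle genes had a median of 0.06 and the 2 of the circadian clock one of 0.01. The 8 nuclear photosystem genes had a median of 0.12, with 0.33 between phyB and WT and -0.32 between phyAphyB and phyA.

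Mitochondrion-encoded genes had a median of -0.06 over 15 measured, 0.63 between phyB and WT and -0.81 between phyAphyB and phyA. Relative to the WT mean it was 0.08 and 1.34 on phyB replicates 1 and 2, 0.23 and 0.63 on the phyA arrays, and -0.63 and -0.39 on the phyAphyB arrays, so that of the phyB arrays replicate 2 alone was clearly above WT. On that array, one of high GAPDH ratio, nad5, nad9, cox2 and ccb203 were the highest of all 8 arrays, and the part of RNA quality in these medians was not tested. The median over the averaged genotypes was -0.36 without phyB replicate 2, 0.26 without phyB replicate 1 and -0.29 without both arrays of high GAPDH ratio. The NADH dehydrogenase subunits nad2 and nad7 went against the rest of the list in phyB. Gene nad2 read 333 and 116 on the WT arrays, 101 and 86 on the phyA arrays, 29 and 48 on the phyB arrays, and 19 and 12 on the phyAphyB arrays. Gene nad7 read 43 to 142 on the PHYB arrays and 23 to 35 on the phyB-9 arrays. For both genes the groups did not overlap, both phyB-9 groups were near the pseudocount, and the log2 differences were -1.46 (SE 0.43) and -1.05 (SE 0.41). These were 2 of 15 members, where 0.734% of all probe sets lay below without overlap. With so few members the count is not read as a result.

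**Figure D4:**
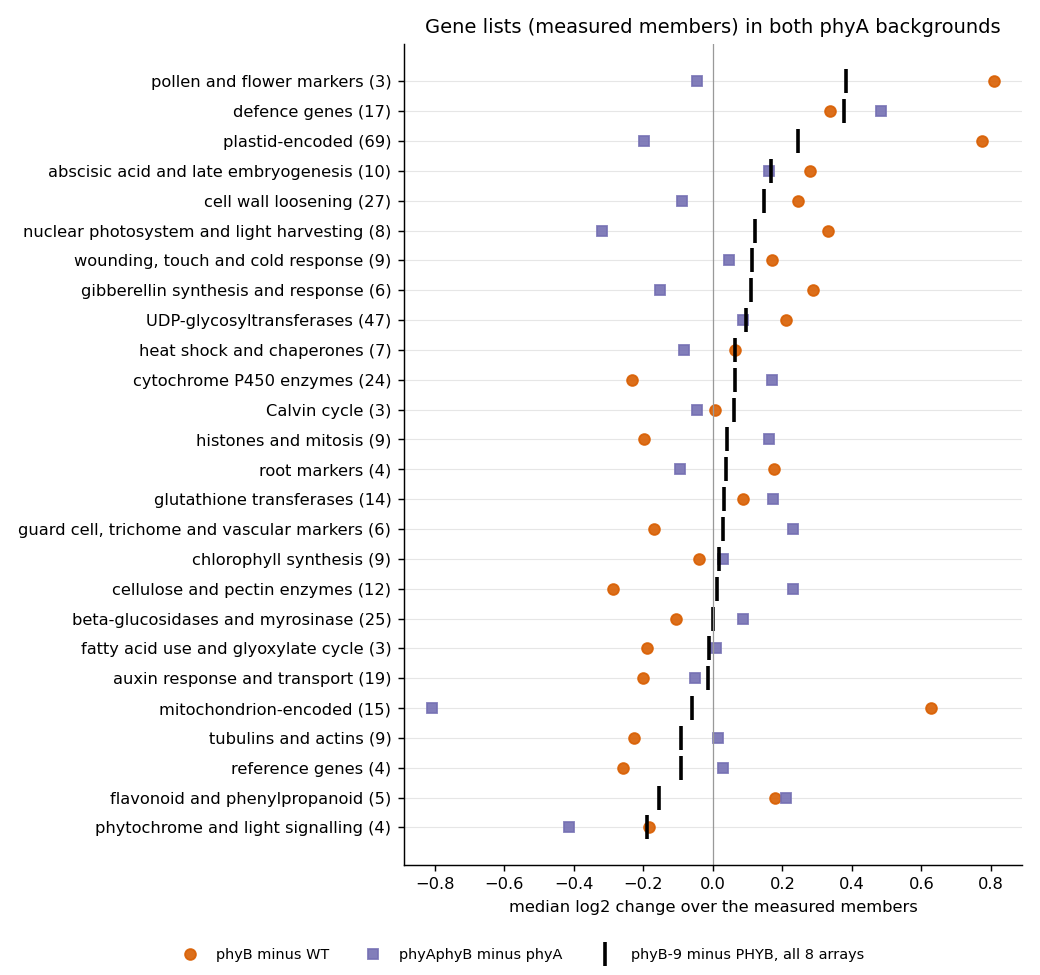
Median log2 change over the measured members of each gene list with at least 3 of them (number in brackets), for phyB minus WT (circles), phyAphyB minus phyA (squares) and the average over all 8 arrays (bars). The defence genes lie right of 0 in both backgrounds, although their median on WT replicate 1 was above that on phyB replicate 1 and phyAphyB replicate 2. Plastid-encoded and mitochondrion-encoded genes lie on opposite sides of 0, where of the phyB arrays replicate 2 alone was high for both lists.

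Among enzymes of secondary metabolism, 32 of 47 measured UDP-glycosyltransferases were positive (53.4% of all probe sets were), with a median of 0.10. UGT84A3 read 452 to 502 on the PHYB arrays and 685 to 1306 on the phyB-9 arrays, a log2 difference of 0.98 (SE 0.36). UGT84A4 (348 to 426 and 455 to 699) and UGT76E11 (170 to 317 and 349 to 441) also had groups that did not overlap, which 0.963% of all probe sets showed in this direction. UGT71B5 read 40 to 262 and 193 to 372, a log2 difference of 1.36 (SE 0.49), and overlapped through WT replicate 1. Without both arrays of high GAPDH ratio the list's median was 0.01. The 24 cytochrome P450 enzymes, 14 glutathione transferases and 25 beta-glucosidases and myrosinase genes had medians of 0.06, 0.03 and 0.00. Of the 9 histone and mitosis genes 5 were positive and 4 negative, with a median of 0.04. HTB1, a histone H2B, read 2040 to 3091 on the PHYB arrays and 3349 to 4902 on the phyB-9 arrays, a log2 difference of 0.64 (SE 0.22). It was 1.03 between phyB and WT and 0.26 between phyAphyB and phyA. HTB1 alone of the list had groups that did not overlap, where 0.963% of all probe sets lay above without overlap. HTB2, HTB4, HTB11 and AUR2 had differences of 0.04, -0.10, -0.16 and -0.39.

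**Figure D5:**
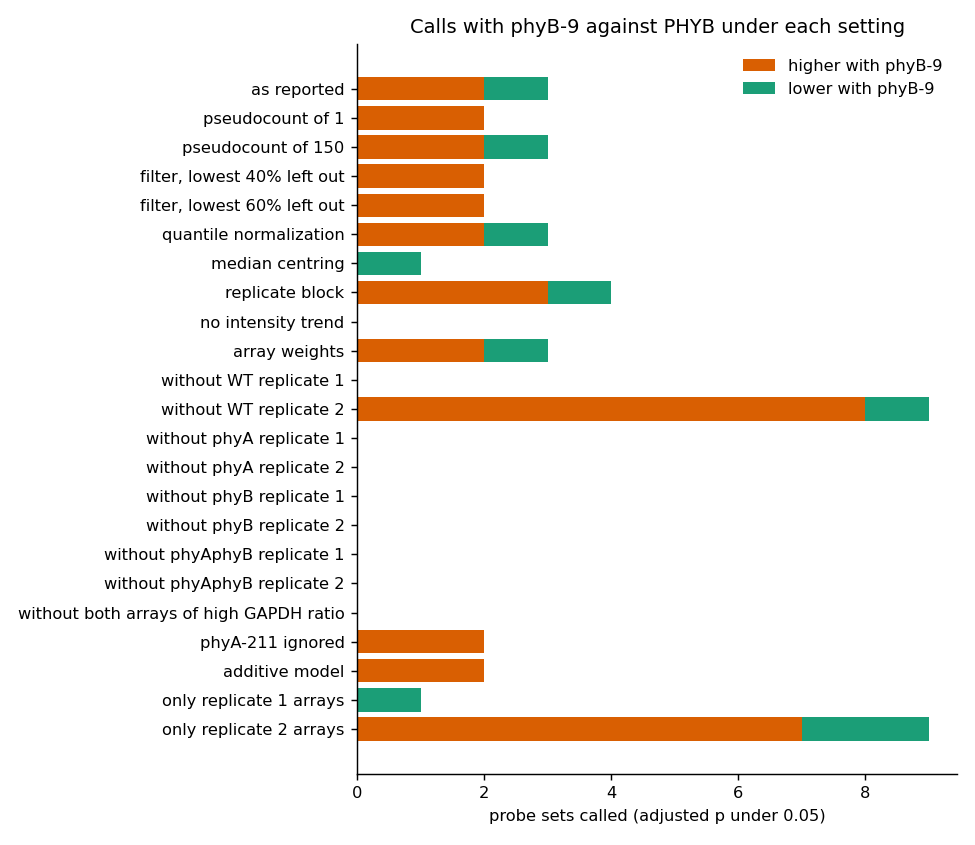
Number of probe sets called with phyB-9 against PHYB (x axis) under each setting of the processing (y axis), higher in orange and lower in green. The bars run from 0 to 9, with 3 as reported and 9 without WT replicate 2 and with the replicate 2 arrays alone.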

How the data were processed

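The intensities were deposited by the authors as 1 whole number per probe set and array on a linear scale. Which software summarised the probes was "not given in the sources used here". On every array the trimmed mean (2%) was 2500.2 to 2500.3, so the deposited values had been scaled to a common mean, and they were used as deposited. Median intensities were 605.5 to 898. The file gives no detection calls. The 64 control probe sets were left out of the tests and used to describe the arrays. A pseudocount of 39, near the 10th percentile of all values, was added before log2, which understates the changes of dim probe sets. No filter on low values was used.

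One model with 4 genotype means was fitted by limma 3.58.1 under R 4.3.3, through lmFit, contrasts.fit and eBayes (trend on mean intensity). It had 4 residual and 6.66 prior degrees of freedom, and the script was tested on simulated data. Contrasts were the mean of phyB and phyAphyB minus the mean of WT and phyA, phyB minus WT, phyAphyB minus phyA, and the difference of the last 2 as the interaction. Tests were two-sided, with Benjamini-Hochberg adjustment over 22746 probe sets. Array quality was compared with exact permutation tests. The number of arrays limits the precision.

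The platform annotation gave 1 gene for 13513 probe sets, several for 503 and no entry for 8730. Of the 13513, 13436 were found in the RefSeq gene table of TAIR10.1, which gave symbols and biotypes. Probe sets whose identifier ends in _s_at or _x_at can take signal from related genes. Coordinates are left out since the build behind the probe sets is unstated, and a planned promoter motif search was not run.

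The members and the 32 gene lists were chosen with earlier results of these data known. After values were seen, CCR1 and CCR2 were taken out of the circadian clock list and TPI out of the Calvin cycle list, because these symbols stood for cinnamoyl-CoA reductases and for the cytosolic isoform. Named genes were AT5G40270, PHYA and PHYB where a probe set named them, every called probe set, the 12 single-gene probe sets of smallest p in each direction, the 2 of smallest p in each list with at least 3 measured members, and the 5 probe sets of smallest interaction p. Other list members were named after their values were seen. Alternatives covered the pseudocount, filters, normalization, the variance model, array weights, the replicate number and left-out arrays. The phyA array whose title lacks a number was named replicate 1 by accession order. Values by array number are alternatives for that reason.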

Additional observations from a re-analysis of the deposited data

Results flagged for a closer look

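Array quality measures stood apart on 2 arrays. The gap of the highest array to its nearest neighbour, as a share of the group's range, passed Dixon's 95% limit for the GAPDH 3'/5' ratio in both groups, at 0.867 among the phyB-9 arrays (phyB replicate 2) and 0.942 among the PHYB arrays (WT replicate 1). WT replicate 1 also passed it for the actin 3'/5' ratio, at 0.834, and for the hybridisation spikes, at 0.944. Chance flags about 1 in 20 groups.

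For 7 of the 81 named probe sets, the phyB arrays lay wholly on one side of the WT arrays while the phyAphyB arrays lay wholly on the other side of the phyA arrays. AT3G55920, AT2G33720 and psbC had been named for their small interaction p, so that this number was partly set by the choice of genes and is not read against the share over all probe sets. The interactions on the log2 scale were 2.74 for AT3G55920, -3.73 for AT2G33720, -3.25 for the photosystem II gene psbC, -1.69 for the cytochrome b6 gene petB, -1.99 for the expansin EXPA7, -2.15 for the stomatal bHLH factor MUTE and -0.75 for GAPC2, a cytosolic glyceraldehyde-3-phosphate dehydrogenase. In limma none of the 7 had an interaction adjusted p under 0.05. For all except AT3G55920, phyB was above WT and phyAphyB was below phyA.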

How the results depend on the processing

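The directions of the 3 called probe sets held in all alternatives run: the log2 difference was 2.03 to 2.17 for 253767_at, 1.95 to 2.27 for 248125_at and -5.59 to -3.01 for AT1G43590, and the adjusted p was under 0.05 in 11 of 22, 11 of 22 and 8 of 20 alternatives. The count of 3 became 1 with median centring, 0 without the intensity trend, 0 without both arrays of high GAPDH ratio, 1 with the replicate 1 arrays alone, 9 with the replicate 2 arrays alone, and 0 to 9 when 1 array was left out. In phyB against WT the 2 calls became 0 with a pseudocount of 1, 1 with 150, 0 with the lowest 40% of probe sets left out, 0 with quantile normalization, 0 without the trend, 0 with array weights, 0 without both arrays of high GAPDH ratio, 1 with the WT and phyB arrays alone, and 0 to 50 when 1 array was left out. Leaving out 1 array gave 0 to 13 calls for the interaction, and median centring gave 1 in phyAphyB against phyA. With the replicate number as a block there were 4 calls with phyB-9, PAP85 added at an adjusted p of 0.0469, and 9 in phyB against WT; it changed no other call count. Same-numbered arrays did not deviate together in every pair of genotypes (correlations of -0.08 to 0.42), so the numbers were not taken to pair them. Signs of uncalled genes turned when 1 array was left out for GID1A (range -0.44 to 0.10), SDP1 (-0.49 to 0.31), hemb2 (-0.032 to 1.33) and LHW (-0.32 to 0.044). They also turned with the replicate 1 arrays alone for ACT11 (0.027), CML37 (-0.11), hemf2 (0.36), LHW (0.072), GID1A (0.30) and SDP1 (0.14), and with the replicate 2 arrays alone for HYH (0.31), RCA (-0.047), hemb2 (-0.13), SPCH (0.075) and PRK (0.086). The causes were not tested. Intensities near the pseudocount limit what the dim probe sets can show.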

Other observations

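Of the 30 probe sets with the smallest p for phyB-9 against PHYB, 23 had a positive and 7 a negative log2 difference. Of them 18 are not named in the annotation table, and 25 had groups that did not overlap. These 30 were chosen by p in this same comparison, so the last count was largely set by the choice. Over all probe sets 0.963% lay above and 0.734% below without overlap. The following unnamed probe sets were singled out after their values were seen. None of them was called. Probe set 253894_at read 347 to 548 on the PHYB arrays and 1220 to 2778 on the phyB-9 arrays, a log2 difference of 2.02 (SE 0.30). Probe set 255049_at read 200 to 792 and 1729 to 3314, a log2 difference of 2.30 (SE 0.35). Both were well apart in either phyA background, at 2.35 and 1.69 for the first and 2.05 and 2.54 for the second. Probe set 265095_at read 541 to 724 and 1620 to 3877, with its highest values in the double mutant. Probe set 249082_at, the brightest of these, read 11431 to 25640 and 34471 to 49262, a log2 difference of 1.44 (SE 0.25). Probe set 258240_at read 464 and 1217 on the WT arrays, 4429 and 4654 on the phyA arrays, 9301 and 5287 on the phyB arrays, and 6137 and 7438 on the phyAphyB arrays, so that WT alone was low. Below the PHYB arrays, 263440_at read 99 to 251 on the PHYB arrays and 10 to 32 on the phyB-9 arrays, and 256576_at read 581 to 1198 and 138 to 355.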
